A study of Mus musculus with 18 samples.

Results

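The genotype label effect in Tfh_5 culture is the comparison of 3 libraries labelled CD4Cre+ Maf fl/fl with 3 libraries labelled CD4Cre- Maf fl/fl, all from mouse CD4 T cells that received the treatment named Tfh_5. The 6 libraries were taken from the 18 of the series by their genotype and treatment labels, and the comparison covered the 11735 genes with enough counts to test, out of 27179 identifiers in the files, of which 25275 have a gene name. Naive CD4 T cells had been activated on anti-CD3 and anti-CD28 fixed to the plate, kept for 3.5 days, sorted by flow cytometry and measured by bulk 3′ RNA sequencing, a method that reads the ends of polyadenylated transcripts. The other 12 libraries carry the treatments Tfh_A and Tfh_1, again 3 libraries for each genotype label. Both genotypes carry Maf flanked by loxP sites on both alleles (Maf fl/fl), so the controls hold the floxed gene too. The label CD4Cre names the Cre recombinase driven by Cd4 regulatory sequence, which acts from the thymus onward and in T cells other than CD4 T cells as well. What the treatment names stand for, which part of Maf is floxed, and the age of the mice are not given in the sources used here. Nothing in the labels says that libraries of a group came from separate mice or cultures, so p-values measure the spread between these libraries, which may be technical.

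c-Maf, the protein made from Maf, is a basic leucine zipper transcription factor of the large Maf family that binds DNA as a dimer, at sites built from a pair of TGCTGA half-sites or parts of them. In CD4 T cells it is induced by T cell receptor signals together with cytokines such as IL-6, TGF-β, IL-21 and IL-27, and it is known for promoting IL-21, IL-4 and IL-10, for its place in T follicular helper (Tfh) and Th17 cells, and for restraining IL-2. Tfh cells help B cells in germinal centres and are known for CXCR5, PD-1, ICOS and BCL6, whereas IL-2 acting through STAT5 opposes their formation.

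The 6 libraries held between 7153845 and 8219189 counts. In each, 2 gene identifiers took 36.8% to 43.0% of all counts. Replicate 5 of the libraries labelled CD4Cre- stood apart: it had the fewest genes above 0 of all 18, 10242, and on the second principal component of the 6 libraries it lay at -59 while the other libraries with its label lay at 46.1 and 56.7. All 6 libraries held Xist RNA and no count of the Y-linked genes Ddx3y, Eif2s3y, Kdm5d or Uty. Levels are given in CPM, counts scaled to a common library total with TMM factors, and 3 values of a group stand in the order of replicates 2, 4 and 5 for the label CD4Cre- and 1, 3 and 6 for the label CD4Cre+. "Higher" and "lower" always mean in the libraries labelled CD4Cre+ relative to those labelled CD4Cre-. Differences are log2 fold changes ± standard error from edgeR's quasi-likelihood test, fitted on all 18 libraries, and adjusted p-values are Benjamini-Hochberg values over all genes tested, with 0.05 as the threshold.

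Maf itself (Entrez gene 17132 in the files, chromosome 8, 115703253 to 115706894, GRCm38) went against the labels. In Tfh_5 culture the libraries labelled CD4Cre- held no whole count of Maf (0.33 in the deposited fractional counts, 0 after rounding), and those labelled CD4Cre+ held 397, 331 and 319 CPM. The 3 libraries labelled CD4Cre+ lay close together, and every one was far above every library of the other label. With the label CD4Cre- set at 3 counts over the group, the limit that a rounded total of 0 allows for counting error only, the level was at least 2392-fold higher under the label CD4Cre+ (adjusted p = 0.000175, edgeR quasi-likelihood test). The order was the same in the other treatments, where the label CD4Cre+ went with 207, 260.1 and 196 CPM in Tfh_1 and 22.8, 8.07 and 5.03 CPM in Tfh_A, against 0, 0 and 2.03 CPM and 0.270, 0 and 0 CPM for the label CD4Cre-. Within the label CD4Cre+, Maf was thus lowest in Tfh_A and highest in Tfh_5, with no overlap among the 3 treatments. A Cre that deletes the floxed gene would leave less Maf RNA in the libraries labelled CD4Cre+, and the files show the opposite order, so the genotype names are used here only as labels. With 3′ counting, reads come from the end of the transcript, and whether they lie within the floxed part cannot be told from the sources used here.

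**Figure D1:**
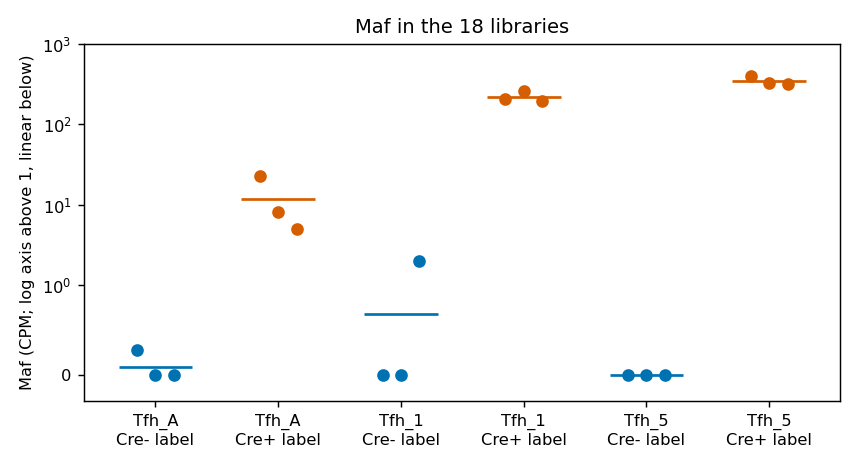
Maf level in CPM for each of the 18 libraries by treatment and genotype label, on an axis that is linear below 1 and logarithmic above, with a line at each group's mean. The libraries labelled CD4Cre- lie at or next to 0 in every treatment, and those labelled CD4Cre+ lie highest in Tfh_5.

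The genes around Maf on chromosome 8 that could be tested did not pass. Of the 5 nearest tested genes on each side, from Terf2ip to 1700030J22Rik, Vat1l had no count in the 6 libraries and gives no test. Of the other 9, none was called by edgeR, DESeq2 or limma-voom, none had an unadjusted p under 0.05, and the smallest adjusted p among these 9 genes was 0.557 (Cenpn, edgeR quasi-likelihood test). Among the 8 tested members of a list of Maf and related leucine zipper factors, Maf was the only one called.

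Across all genes, 380 of 11735 passed the threshold (3.24%), of which 140 were higher (1.19%) and 240 were lower (2.05%) in the libraries labelled CD4Cre+. The median difference over all genes tested was 0, with 5660 genes above 0 and 5827 below. The called genes that were higher had a median difference of 1.63 and those that were lower one of -1.37. In 359 of the 380 called genes the libraries of the labels did not overlap, which was the case for 16.6% of all genes tested (7.98% higher, 8.62% lower). Calls depended on level: they made up 0.579% of genes below 10 CPM, 2.89% of those from 10 to 100 CPM, and 15% of those at 100 CPM or more. The level here is the mean of whichever label had the higher mean, so it rises with the difference itself. Among the called genes that were lower, 24 had no count in any library labelled CD4Cre+, and among those that were higher, 3 had none in any library labelled CD4Cre-. All 380 calls kept their direction when each of the 6 libraries was left out in turn, and 153 kept their call every time (55 higher, 98 lower). The number of calls ranged from 258, without replicate 1 of the label CD4Cre+, to 387, without replicate 4 of the label CD4Cre-. Without replicate 5 of the label CD4Cre-, the library that stood apart, 287 genes were called. A fit of the 6 Tfh_5 libraries alone, where 3 libraries a group must supply the whole estimate of spread, called 80 of 9662 genes tested, 77 of them among the 380.

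**Figure D2:**
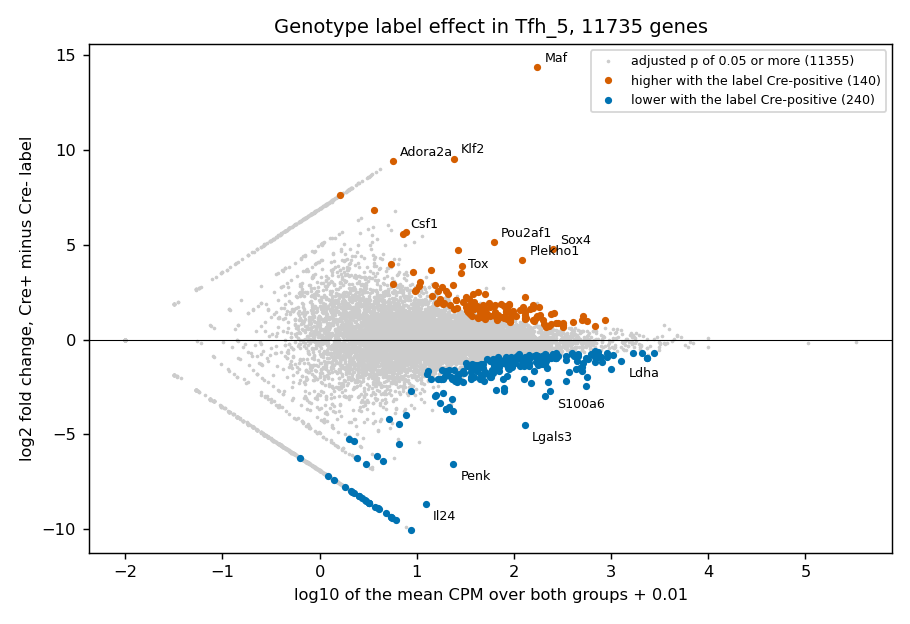
Each point is 1 of the 11735 genes tested, with the log10 of its mean level over both groups (CPM + 0.01) on the x axis and its log2 fold change, label CD4Cre+ minus label CD4Cre-, on the y axis. Coloured points are the 140 called genes that were higher and the 240 that were lower, and the named points include Maf, Klf2 and Sox4 above 0 and Lgals3, Il24 and Penk below. Genes with no count in 1 group form the diagonal arms, where the fitted value depends on the prior count of the fit and is no measured fold.

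Among the 12 called genes with the largest positive differences, transcriptional regulators stood beside Maf. Klf2, a zinc finger factor that keeps naive T cells quiescent and drives the exit receptor S1pr1, was nearly absent under the label CD4Cre- at 0, 0.142 and 0 CPM and stood at 60.7, 50.8 and 31.8 CPM under the label CD4Cre+. The whole signal under the label CD4Cre- was 1 count, and the level under the label CD4Cre+ was 975-fold higher (95% counting interval 175 to 38555), with an adjusted p of 9.97e-08 (edgeR). Sox4, an HMG-box factor of early lymphocytes, rose from 10.4, 28.1 and 14.7 CPM to 464, 511 and 471 CPM, a difference of 4.77 ± 0.63 (adjusted p = 0.000355, edgeR). The labels did not overlap, and the libraries labelled CD4Cre- were more widely spread than those labelled CD4Cre+ relative to their mean. Sox4 had fractional counts in 7 of the 18 libraries, so how shared reads were assigned to it is uncertain. Pou2af1, the coactivator OBF-1 that works with octamer-binding factors and is known from B cells and Tfh cells, rose from 7.13, 2.71 and 0.335 CPM to 117, 127 and 117 CPM (log2 difference 5.12 ± 0.98, adjusted p = 0.00771, edgeR). Nr4a1, an immediate early gene of T cell receptor signalling, went from 0.778, 3.85 and 1.51 CPM to 14.5, 4.54 and 59.1 CPM. The libraries labelled CD4Cre+ were spread far apart, and the call was lost without replicate 6, the highest of them (adjusted p = 0.116, edgeR). Neither limma-voom (adjusted p = 0.248) nor the fit of the 6 Tfh_5 libraries alone (adjusted p = 0.123, edgeR) called Nr4a1.

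The rest of these 12 genes act at the membrane or in the secretory pathway, as far as their roles are known. St6gal1, which adds α2,6-linked sialic acid to glycoproteins, rose from 3.50, 2.14 and 0 CPM to 65.1, 22.9 and 63.8 CPM (log2 difference 4.70 ± 0.73, adjusted p = 0.000403, edgeR). Plekho1, also called CKIP-1, which binds membrane lipids and actin capping protein, rose from 12.2, 21.9 and 3.68 CPM to 218, 273 and 203 CPM (log2 difference 4.19 ± 0.57). Marcksl1, a substrate of protein kinase C that binds actin and calmodulin, rose from 5.06, 2.28 and 3.68 CPM to 31.3, 61.8 and 69 CPM (log2 difference 3.87 ± 0.74). None of these 3 genes had overlapping groups, and each kept its call when any 1 library was left out and when only these 6 libraries were fitted. Adora2a, the gene of an adenosine receptor that raises cyclic AMP and damps T cell activation, had no count under the label CD4Cre- and 17.5, 8.70 and 7.75 CPM under the label CD4Cre+, at least 76-fold higher with the other label set at 3 counts. Csf1, the macrophage growth factor M-CSF, rose from 0.259, 0.570 and 0 CPM to 12.2, 8.57 and 22.1 CPM. The fit of these 6 libraries alone called neither Adora2a nor Csf1 (adjusted p = 0.0636 and 0.0916, edgeR). The remaining pair, Slamf1 (a homotypic receptor of activated T cells) and A630023P12Rik, each lost the call without any 1 of 3 libraries, with adjusted p up to 0.0953 and 0.126 (edgeR).

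The promoters of 3 of these genes are shown because they are among the largest changes in transcripts of regulators and of a glycosylation enzyme and because they differ in whether they hold the letters of a c-Maf half-site. Windows of 300 bases, 250 before and 50 after each transcript start, came from RefSeq (GRCm38.p6). TGCTGA was searched on both strands. The 250 bases before the start are printed 5′ to 3′ on the gene's strand, with a TGCTGA match on either strand in capitals.
Pou2af1, chr9:51213440-51213689, plus strand: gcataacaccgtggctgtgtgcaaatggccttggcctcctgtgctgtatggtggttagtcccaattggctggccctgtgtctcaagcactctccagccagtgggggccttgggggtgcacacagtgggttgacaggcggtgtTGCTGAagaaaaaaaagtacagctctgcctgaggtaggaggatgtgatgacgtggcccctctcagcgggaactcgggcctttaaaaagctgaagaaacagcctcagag
St6gal1, second of 3 windows, chr16:23225771-23226020, plus strand: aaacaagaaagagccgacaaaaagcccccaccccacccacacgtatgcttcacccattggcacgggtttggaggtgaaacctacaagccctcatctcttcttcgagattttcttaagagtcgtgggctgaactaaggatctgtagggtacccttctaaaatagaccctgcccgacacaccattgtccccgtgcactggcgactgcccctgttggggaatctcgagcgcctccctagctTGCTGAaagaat
Sox4, chr13:28953700-28953949, minus strand: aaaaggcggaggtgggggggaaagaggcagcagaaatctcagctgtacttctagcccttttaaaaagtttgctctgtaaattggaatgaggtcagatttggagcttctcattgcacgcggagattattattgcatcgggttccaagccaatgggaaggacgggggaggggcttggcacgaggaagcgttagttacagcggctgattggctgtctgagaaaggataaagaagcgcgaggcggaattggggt
The Pou2af1 window held 1 match, which begins 108 bases before the start. The second St6gal1 window held 1 that begins 12 bases before the start, the third window of that gene held 1 behind the start together with an AP-1 motif, and the first window and the Sox4 window held none.

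Over the whole comparison these letters were about as frequent among genes that rose as among genes that fell. TGCTGA lay in 15.9% of the windows of called genes that were higher, in 17.7% of those that were lower, in 14.9% over all tested genes with a window and in 19.5% of all 32851 windows of the same length. The AP-1 motif TGANTCA, which can overlap an extended Maf site, lay in 6.47% of windows of higher genes, 8.41% of lower genes and 5.01% of all tested genes. Promoters were found for 9011 of the tested and 301 of the called genes. A match of 6 or 7 letters is a description of the window and not a binding site.

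The 12 called genes with the largest negative differences were mostly transcripts that nearly vanished under the label CD4Cre+. Il24, a cytokine of the IL-10 family, stood at 11, 39.8 and 23.6 CPM under the label CD4Cre- and at 0, 0.130 and 0 CPM under the label CD4Cre+. That single count made the label CD4Cre+ level 538-fold lower (95% counting interval 96.1 to 21293), with an adjusted p of 8.67e-07 (edgeR). Penk, which encodes the opioid peptide precursor proenkephalin, fell from 22, 43.5 and 75.9 CPM to 0, 1.04 and 0.387 CPM (log2 difference -6.54 ± 0.89, adjusted p = 0.000174, edgeR). Dusp28, a phosphatase of the dual-specificity family, went from 6.74, 16.1 and 29.1 CPM to no count, at least 120.4-fold lower with the label CD4Cre+ set at 3 counts over the group. Il24, Penk and Dusp28 each kept their call when any 1 library was left out and when only these 6 libraries were fitted.

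Lgals3, which encodes the galactose-binding lectin galectin-3, fell, with no overlap between the labels. It stood at 240.0, 202 and 299 CPM under the label CD4Cre- and at 6.65, 12.9 and 13 CPM under the label CD4Cre+, a log2 difference of -4.50 ± 0.34 (adjusted p = 1.68e-11, edgeR). A further 3 transporter or membrane genes were in this group. Abcb6, a porphyrin transporter of the ABC family, went from 6.87, 7.27 and 19.4 CPM to no count, and Abcc1, the multidrug transporter MRP1, from 8.82, 21.4 and 8.36 CPM to 0, 0.389 and 0.387 CPM. Nkain1, a partner of the sodium pump, went from 11.4, 22.1 and 2.68 CPM to no count. Ermn, Guca1a and Mgarp likewise did not overlap between the labels and kept their calls in every fit without 1 library, whereas the fit of the 6 libraries alone called none of these 3 nor of the 3 transporter or membrane genes. Of the other 2, Stk32c lost the call without any 1 of 4 libraries and Dclk1 without either of 2 (adjusted p up to 0.101 and 0.0719, edgeR).

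**Figure D3:**
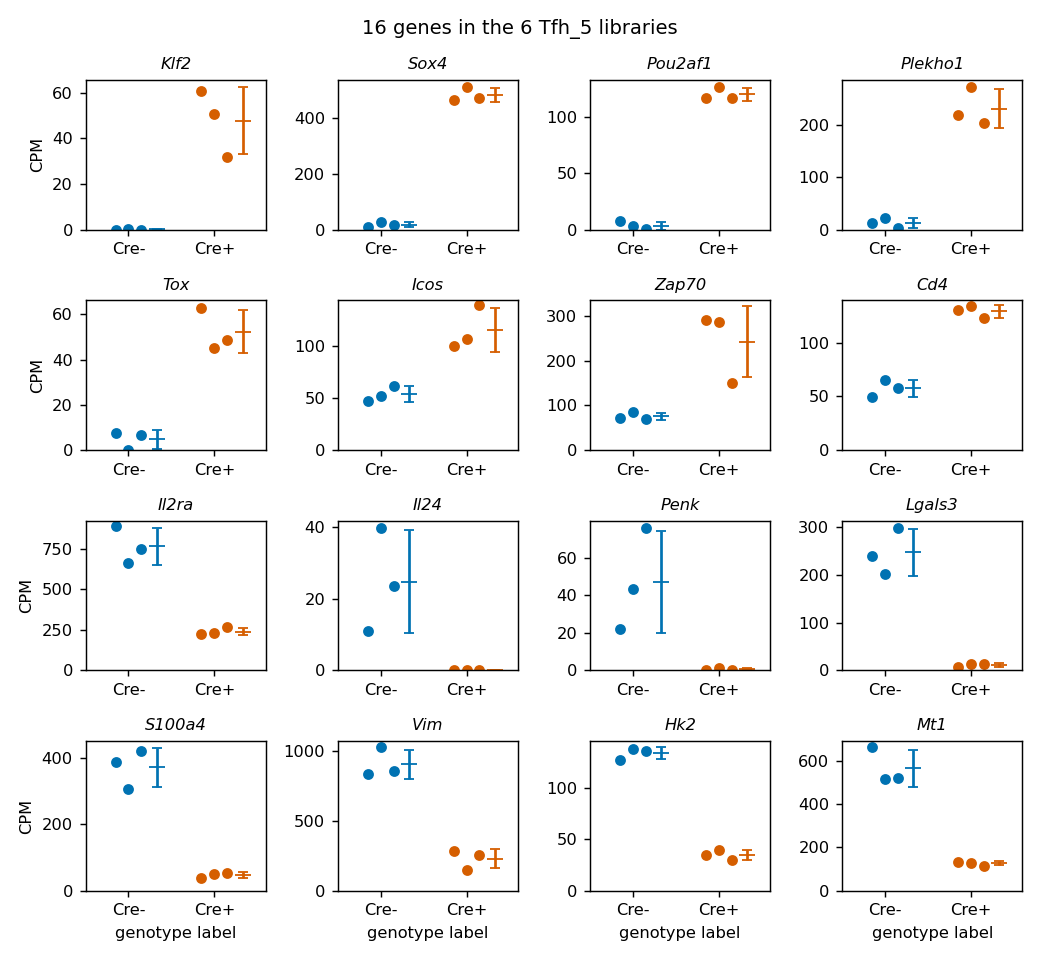
Levels in CPM of 16 genes in each of the 6 Tfh_5 libraries, 3 per genotype label, each panel on its own linear axis from 0, with the group mean and SD of 3 libraries beside the points. For the genes higher under the label CD4Cre+, such as Sox4 and Pou2af1, and those lower, such as Lgals3 and Il24, the points of the labels do not overlap.

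Transcription factors outside these extremes moved in both directions. Of 15 tested genes of the Sox, TCF, TOX and Id families, 3 were higher and 1 was lower, against 1.19% and 2.05% over all genes. The median difference was 0.29. Tox, an HMG-box factor of CD4 lineage development, Tfh cells and chronically stimulated T cells, rose from 7.39, 0 and 6.52 CPM to 63, 45.3 and 48.7 CPM (log2 difference 3.49 ± 0.77, adjusted p = 0.00629, edgeR). Id3 rose from 2.46, 4.13 and 1.67 CPM to 10.9, 11.7 and 26.5 CPM (log2 difference 2.56 ± 0.45). Id2, which like Id3 sequesters E proteins, fell from 1000.2, 831 and 978 CPM to 403, 489 and 356 CPM (log2 difference -1.17 ± 0.19, adjusted p = 0.000188, edgeR). The Id genes thus moved in opposite directions, each with separate groups in all 6 libraries, and each call held without any 1 library. Id3 was called neither by limma-voom nor when only the 6 Tfh_5 libraries were fitted.

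Genes of quiescence and trafficking showed the same mixture. Of 23 tested members, 2 were higher and 3 were lower, against 1.19% and 2.05% over all genes, and the median difference was 0.72. Btg1, an antiproliferative gene of resting lymphocytes, rose from 28.7, 28.4 and 23.8 CPM to 87.9, 64.7 and 123 CPM (log2 difference 1.77 ± 0.32, adjusted p = 0.000640, edgeR). Klf6, Il7r (the IL-7 receptor α chain) and Cd44, a marker of activation, were lower, with differences of -1.44 ± 0.26, -1.38 ± 0.32 and -0.74 ± 0.21. S1pr1, a known target of KLF2, and the naive T cell receptor gene Ccr7 did not pass the test: S1pr1 differed by -0.32 ± 0.60 (adjusted p = 0.913) and Ccr7 by 0.80 ± 0.25 (adjusted p = 0.0669, edgeR). Il7r and Cd44 lost their calls in fits without 1 library, with adjusted p up to 0.116 and 0.284 (edgeR).

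Other regulators were singled out after their values were seen. Myb, the factor of progenitor cells, differed by 2.22 ± 0.52 and Klf13 by 1.47 ± 0.26, both higher and both called in every fit run. Zfp36l1, an RNA-binding protein that promotes decay of AU-rich transcripts, was higher by 1.97 ± 0.36. Zbtb32, a zinc finger repressor of activated lymphocytes, differed by -3.12 ± 0.55. Their group means were 11.3 ± 2.7 and 52.8 ± 12.1 CPM for Myb and 41.7 ± 7.10 and 4.83 ± 4.45 CPM for Zbtb32 (mean ± SD, n = 3 libraries, label CD4Cre- first).

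A list of 25 genes of the Tfh program had 24 tested members, of which 5 were higher and 1 was lower, against 1.19% and 2.05% over all genes, with a median difference of 0.74. The members that were higher were Icos, Tox, Id3, Pou2af1 and Angptl2, and the one that was lower was Batf, an AP-1 family factor needed by Tfh and Th17 cells. Icos, the costimulatory receptor of Tfh cells, rose from 47.7, 52 and 62.2 CPM to 100.3, 107 and 139.9 CPM (log2 difference 1.10 ± 0.24, adjusted p = 0.00562, edgeR). Every library labelled CD4Cre+ was above every library labelled CD4Cre-. Cxcr5, the receptor that leads Tfh cells into follicles, stood at 2.46, 5.13 and 0 CPM and 8.01, 16 and 24.4 CPM, and Pdcd1, which encodes PD-1, at 62.1, 33.2 and 38.1 CPM and 43.4, 95.2 and 82.8 CPM. Neither passed the test, with adjusted p of 0.521 and 0.393 (edgeR), and Cxcr5 had a standard error of 1.76 on its difference of 2.66. Bcl6 held no whole count in any of the 18 libraries and was not tested. Tmsb4x of the cytoskeleton list and Mcm2 of the cell cycle list also held no whole count in the 6 Tfh_5 libraries. Whether a count of 0 means absent RNA or reads not assigned to the gene was not tested. Il21, the signature cytokine of Tfh cells, differed by 0.15 ± 0.28 (adjusted p = 0.911). Of the 6 calls, Icos, Tox and Id3 held in every fit without 1 library, Batf reached an adjusted p of 0.182, and Pou2af1 one of 0.0585 without replicate 4 of the label CD4Cre- (edgeR). The fit of the 6 Tfh_5 libraries alone called 1 member of the list, Pou2af1 (adjusted p = 0.00228, edgeR). It did not call Icos, Tox or Id3 (adjusted p = 0.115, 0.105 and 0.270, edgeR).

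Genes of T cell receptor signalling lay mostly on the positive side. Of 25 tested members, 4 were higher and none was lower, against 1.19% higher over all genes, 21 differences were above 0, and the median was 0.64. The list of T cell markers, which shares 6 genes with it, moved the same way, with 3 of 10 higher, 9 differences above 0 and a median of 0.60; its part in this result was not tested. Zap70, the kinase that binds the phosphorylated receptor complex, rose from 72.1, 84.4 and 69.1 CPM to 289.8, 286 and 149.8 CPM (log2 difference 1.69 ± 0.26, adjusted p = 5.40e-05, edgeR). The coreceptor gene Cd4 rose from 49.4, 65 and 57.9 CPM to 131, 135 and 123 CPM (log2 difference 1.17 ± 0.23, adjusted p = 0.00129, edgeR). The groups of Zap70 and Cd4 did not overlap, and both held without any 1 library. The fit of the 6 Tfh_5 libraries alone called Zap70 (adjusted p = 0.0185) and not Cd4 (adjusted p = 0.0704, edgeR). Zap70 was its only call in the T cell receptor list. The receptor ζ chain gene Cd247 and the kinase gene Fyn were higher by 1.01 ± 0.27 and 1.36 ± 0.38, and lost their calls in 4 and 5 of the fits without 1 library (adjusted p up to 0.146 and 0.406, edgeR).

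Costimulatory and checkpoint receptors gave 1 call among 16 tested TNF receptor family and related genes and 3 among 17 tested CD28 family, SLAM family and inhibitory receptors, all of them higher. Over all genes, 1.19% were called higher. The fit of the 6 Tfh_5 libraries alone called no member of either list (edgeR). Cd27, a TNF receptor family member of naive and memory T cells, rose from 38.1, 23.1 and 7.19 CPM to 73.4, 112 and 79.4 CPM (log2 difference 1.95 ± 0.42, adjusted p = 0.00447, edgeR). Cd28, the main costimulatory receptor, differed by 0.72 ± 0.20, and its call was lost without any 1 of 4 libraries. The inhibitory receptor gene Ctla4 differed by -0.41 ± 0.26 and did not pass (adjusted p = 0.487, edgeR).

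Il2ra, the gene of CD25, through which IL-2 binds its receptor with high affinity, fell in Tfh_5 culture. It went from 887, 660.0 and 746 CPM to 223, 229 and 267 CPM, with all 3 libraries labelled CD4Cre+ well below the lowest of the other label. The difference was -1.68 ± 0.18 (adjusted p = 9.97e-08, edgeR) and was called in every fit run. Of 22 tested genes of IL-2 and STAT5 signalling, 1 was higher and 5 were lower, against 1.19% higher and 2.05% lower over all genes, with a median of 0.09. Bcl2, the survival gene, fell from 23.9, 20.5 and 41.3 CPM to 9.82, 2.73 and 7.75 CPM, a call that limma-voom (adjusted p = 0.150) and the fit of the 6 libraries alone (adjusted p = 0.191, edgeR) did not make. Cish, a STAT5-induced inhibitor of cytokine signalling, fell by 1.22 on the log2 scale, and Lta, which encodes lymphotoxin α, by 1.87. Il2 itself had too few counts to be tested. Cish and Lta each lost the call without replicate 6 of the label CD4Cre+, with adjusted p of 0.0924 and 0.0700 (edgeR).

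Other cytokine receptors and secreted products were chosen after their values were seen. Il21r, the IL-21 receptor gene, fell from 261, 224 and 236 CPM to 108, 71.1 and 53.2 CPM (log2 difference -1.64 ± 0.25, adjusted p = 7.54e-05, edgeR). Timp1, an inhibitor of matrix metalloproteinases, fell from 578, 710.2 and 671 CPM to 298, 204 and 165 CPM, and Ctla2a, which encodes a cathepsin inhibitor, from 2006, 1192 and 1316 CPM to 616, 413 and 498 CPM. Tfrc, the transferrin receptor gene of proliferating cells, fell from 327, 306 and 343 CPM to 76.3, 131 and 142 CPM. All 4 had separate groups and were called in every fit run. Among 24 tested genes of cytokines and other secreted products as a list, 1 was higher (Csf1) and 3 were lower (Il24, Lta and Penk), with a median of -0.08. Over all genes, 1.19% were higher and 2.05% lower.

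Genes of S100 proteins, galectins, annexins and vimentin that passed the test were all lower. Of 14 tested members of this list, 7 were lower and none was higher, against 2.05% lower over all genes, and the median difference was -1.08. These are calcium-, lipid- or sugar-binding proteins and a filament protein that are known to be abundant in effector and memory T cells. S100a4 fell from 388, 308 and 422 CPM to 38.4, 51.7 and 53.3 CPM (log2 difference -2.96 ± 0.26, adjusted p = 5.57e-10, edgeR). S100a6 fell from 369, 419 and 434 CPM to 69.5, 39.7 and 74.9 CPM (log2 difference -2.73 ± 0.21, adjusted p = 1.68e-11, edgeR). For both genes every library labelled CD4Cre+ was far below every library labelled CD4Cre-. Vim, which encodes vimentin, fell from 831, 1025 and 856 CPM to 283, 151 and 253 CPM (log2 difference -1.98 ± 0.22). S100a10 differed by -1.43 ± 0.19 and its partner Anxa2 by -1.50 ± 0.21. Lgals1, the galectin-1 gene, differed by -0.74 ± 0.18. Lgals1 lost its call without any 1 of 3 libraries (adjusted p up to 0.0814, edgeR), and the other 6 called members kept theirs in every fit without 1 library.

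Glycolysis genes were lower as far as they passed the test. Of 28 tested members of a list of glycolytic enzymes, transporters and related targets of HIF, 9 were lower and none was higher, against 2.05% lower over all genes and 15% called in either direction among genes at 100 CPM or more. Of these members, 25 differences were below 0, with a median of -0.60, and the fit of the 6 Tfh_5 libraries alone called 1 (edgeR). Hk2, the inducible hexokinase gene, fell from 127, 138 and 136 CPM to 35.1, 39.9 and 29.4 CPM (log2 difference -1.94 ± 0.22, adjusted p = 1.70e-07, edgeR). Ldha, which encodes the lactate dehydrogenase subunit that turns pyruvate into lactate, fell from 2250.5, 1554 and 1433 CPM to 1071, 663 and 697 CPM (log2 difference -1.11 ± 0.18, adjusted p = 0.000174, edgeR). Pgk1, phosphoglycerate kinase, fell from 388, 366 and 345 CPM to 187, 209 and 212 CPM (log2 difference -0.86 ± 0.17). The lactate exporter gene Slc16a3 fell by 0.92. Gapdh and Aldoa, enzymes of the middle of the pathway, did not pass, with differences of -0.59 ± 0.26 and -0.45 ± 0.18. Hk2, Ldha, Pgk1, Bnip3 and Vegfa kept their calls in every fit without 1 library, and the remaining 4 of the 9, Hk1, Pfkp, Pgam1 and Slc16a3, did not.

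A second list of 25 genes known to be induced by low oxygen was written after these calls were seen and is given only as a description. It shares 8 genes with the glycolysis list, of which Bnip3 and Vegfa were called. Of 24 tested members, 12 were lower and 1 (Plin2) was higher, against 2.05% and 1.19% over all genes, and the median was -1.23. With limma-voom 8 were lower and 1 was higher. The fit of the 6 Tfh_5 libraries alone called 3 lower and none higher, and it called neither Ndrg1 nor Vegfa (adjusted p = 0.0564 and 0.270, edgeR). Hilpda, a lipid droplet protein gene, fell from 246, 170.0 and 197 CPM to 71, 46.7 and 27.9 CPM (log2 difference -2.08 ± 0.25, adjusted p = 5.72e-07, edgeR). Fam162a fell from 636, 531 and 518 CPM to 189.8, 145 and 187 CPM (log2 difference -1.69 ± 0.18, adjusted p = 6.76e-08, edgeR). Ero1a, an oxidase of the endoplasmic reticulum, and Ndrg1 fell by 1.99 and 2.21 on the log2 scale. Vegfa, the angiogenic growth factor gene, stood at 4.28, 5.98 and 2.68 CPM and had no count in any library labelled CD4Cre+. Hif1a, the oxygen-regulated factor gene, differed by -0.33 ± 0.21 and did not pass (adjusted p = 0.496, edgeR). Adm, Ak4, Ankrd37 and Pgm1 lost their calls in fits without 1 library.

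Metallothionein genes, whose products bind zinc and copper, fell together. Mt1 went from 662, 514 and 519 CPM to 133, 129.7 and 116 CPM (log2 difference -2.16 ± 0.20, adjusted p = 3.09e-09, edgeR), and Mt2 from 425, 350.3 and 337 CPM to 136, 65.2 and 36.5 CPM (log2 difference -2.23 ± 0.35). With the zinc importer gene Slc39a4 these were the only calls among 16 tested genes of the list, whose median was -0.49. Over all genes, 2.05% were called lower. Mt1 and Mt2 kept their calls in every fit without 1 library, and Slc39a4 lost its call without any 1 of 3 libraries (adjusted p up to 0.0966, edgeR). Mt1 and Mt2 are close paralogs with fractional counts in 5 and 12 of the 18 libraries, so how reads were split between them is uncertain.

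Genes of cholesterol and fatty acid synthesis that passed the test were lower. Of 33 tested members, 7 were lower and none was higher, against 2.05% lower over all genes, and the median was -0.61. The fit of the 6 Tfh_5 libraries alone called none of them (edgeR), and DESeq2 called 8. Fdps, which encodes farnesyl diphosphate synthase, stood at 246 ± 31.5 CPM under the label CD4Cre- and 117 ± 8.11 CPM under the label CD4Cre+ (mean ± SD, n = 3 libraries each, log2 difference -1.07 ± 0.22). Acat2 and Scd1, the acetyl-CoA acetyltransferase and the stearoyl-CoA desaturase genes, fell by 1.13 and 1.93. Fdps, Acat2 and Scd1 held in every fit without 1 library, whereas Cyp51, Mvd and Msmo1 did not.

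Oxidative phosphorylation genes gave 4 calls among 32 tested members, 1 higher and 3 lower, with a median of -0.25. Over all genes, 3.24% were called, and among those at 100 CPM or more, 15%. The fit of the 6 Tfh_5 libraries alone called 1 member (edgeR). Cox6c, a cytochrome oxidase subunit gene, differed by -0.94 ± 0.17, while Ndufa4, another subunit of that complex, was higher by 1.72 ± 0.36. AA467197 (also known as Nmes1), which encodes a paralog of the Ndufa4 protein, fell from 779.7, 910.0 and 1124 CPM to 199, 129.7 and 180.0 CPM (log2 difference -2.47 ± 0.25, adjusted p = 1.90e-08, edgeR) and was called in every fit run. Ndufa4 had fractional counts in 16 libraries and was called neither by limma-voom nor by the fit of the 6 libraries alone. The 9 transcripts encoded by mitochondrial DNA summed to 38854 to 50553 CPM under the label CD4Cre- and 33206 to 47112 CPM under the label CD4Cre+, so the ranges overlapped. One of them, ND2, was lower (log2 difference -0.74 ± 0.18, adjusted p = 0.0148, edgeR), and lost the call without either of 2 libraries.

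**Figure D4:**
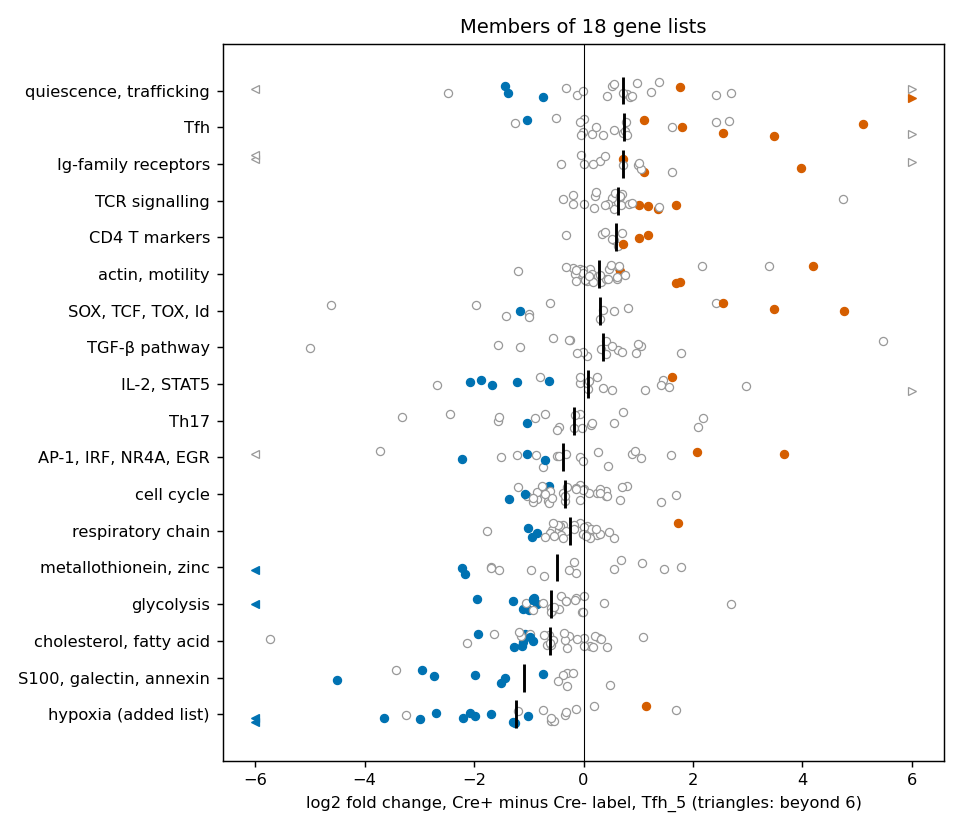
For each gene list, the log2 fold change of every tested member (label CD4Cre+ minus label CD4Cre- in Tfh_5 culture), with called members filled in colour, other members open, values beyond 6 drawn as triangles at the edge, and a line at the median. Members of the S100 and galectin list and of the glycolysis list lie mostly below 0, and those of the T cell receptor list mostly above.

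Of 39 tested cell cycle genes, 4 were lower and none was higher, with a median of -0.34. Over all genes, 2.05% were called lower, and among those at 100 CPM or more, 15% were called in either direction. Among the 4, only Cdkn1a, which encodes the cyclin kinase inhibitor p21, held in every fit without 1 library (log2 difference -1.07 ± 0.24, adjusted p = 0.00565, edgeR). The fit of the 6 Tfh_5 libraries alone called no member of this list (for Cdkn1a, adjusted p = 0.173, edgeR). The proliferation marker Mki67 differed by -0.64 ± 0.33 (adjusted p = 0.368, edgeR). Among 29 tested genes of Myc and ribosome biogenesis, Nop58 alone was called, and among 26 tested amino acid and ATF4 genes, Asns alone. Both were lower, against 2.05% lower over all genes. Nop58 lost its call without any 1 of 4 libraries and Asns without either of 2 (adjusted p up to 0.213 and 0.134, edgeR). Of 28 tested interferon and antigen presentation genes, Ly6a and H2-K1 were lower, against the same 2.05%. Ly6a, which encodes the surface antigen Sca-1, fell from 704, 716 and 729 CPM to 312, 312 and 304 CPM (log2 difference -1.21 ± 0.17, adjusted p = 1.25e-05, edgeR). H2-K1, a classical MHC class I gene, fell by 1.07 on the log2 scale.

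Genes of the cytoskeleton that passed were higher. Of 34 tested members, 4 were higher and none was lower, against 1.19% higher over all genes, with a median of 0.28. Lsp1, a leukocyte protein that binds F-actin, stood at 40.2 ± 7.06 and 131 ± 35.8 CPM under the labels CD4Cre- and CD4Cre+ (mean ± SD, n = 3, log2 difference 1.70 ± 0.32). Lpar6, a receptor for lysophosphatidic acid, was higher by 1.76 ± 0.40. Among AP-1, IRF and immediate early genes, 2 were higher (Nr4a1 and Egr1) and 3 were lower (Junb, Batf and Nfil3) of 22 tested, against 1.19% and 2.05% over all genes. None of these 5 held in every fit without 1 library.

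Of the genes of other helper subsets, the cytokines and lineage factors Il17a, Il17f, Il10, Tbx21 and Gata3 did not pass the test. Among the Th17 genes, Il17a differed by -0.17 ± 0.28 (adjusted p = 0.900), Il17f by -0.71 ± 0.99 (adjusted p = 0.865) and Ccr6 by 0.71 ± 0.38 (adjusted p = 0.373, edgeR). Il17a stood at 125, 202 and 167 CPM under the label CD4Cre- and 128, 156 and 156 CPM under the label CD4Cre+. Il10, a known target of c-Maf, stood at 6.22, 42.3 and 23.6 CPM and 11.3, 5.32 and 8.14 CPM, so its groups overlapped (adjusted p = 0.634, edgeR). Tbx21, the Th1 factor T-bet, differed by -2.02 ± 0.94, Gata3, the Th2 factor, by -0.19 ± 1.40, and Tcf7, the factor TCF-1 of naive and Tfh cells, by 2.43 ± 2.27 (adjusted p = 0.320, 1 and 0.733, edgeR). The counts of Foxp3, Ifng, Il4 and Prdm1 were below the filter, and Ifng, Il4 and Prdm1 held no whole count in the 6 Tfh_5 libraries. Of the 19 tested Th17 genes, Batf alone was called, and of the 17 tested genes of Th1, Th2 and regulatory T cells, Stat4 was higher by 3.02 ± 0.65 and Il2ra lower. Over all genes, 3.24% were called in either direction. None of the 20 tested genes of TGF-β signalling was called by edgeR, and 2 had an unadjusted p under 0.05, while DESeq2 called 1 and limma-voom 2 (all higher), with a median of 0.36.

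The T cell markers of the labelled cell type were present: all 10 T cell markers were detected, at a summed 2972 to 3423 CPM under the label CD4Cre- and 3712 to 4361 CPM under the label CD4Cre+, so the sums did not overlap. Of these markers Cd4, Cd247 and Cd28 were called higher, against 1.19% higher over all genes. Of 18 B cell and MHC class II markers, 9 had no count in any of the 6 libraries, and 4 could be tested. Of these, 2 were lower, against 2.05% lower over all genes. Ebf1, a B lineage factor, stood at 11, 2.71 and 9.37 CPM and 0.302, 0 and 0 CPM, and the MHC class II gene H2-Ab1 at 69.6, 44.3 and 59.9 CPM and 19, 16.1 and 5.42 CPM. The summed level of the list was 55.3 to 80.6 CPM under the label CD4Cre- and 22.3 to 30.4 CPM under the label CD4Cre+, and its part in other results was not tested. Among the markers with no count were Pax5, Ms4a1 and Cd79b. Whether the RNA of these genes was absent or their reads were not assigned was not tested. Myeloid markers summed to at most 18.7 CPM, CD8 T cell markers to at most 33.4 CPM, natural killer and innate lymphoid markers to at most 38.6 CPM, γδ T cell markers to at most 9.22 CPM and erythroid markers to at most 8.87 CPM in any library. None of these genes was called by edgeR, DESeq2 or limma-voom with the count filter, and 1 (a CD8 T cell marker) had an unadjusted p under 0.05 (edgeR). With no count filter, edgeR called 1 CD8 T cell marker lower. In bulk RNA, fewer cells that express a gene and less of its RNA per cell cannot be told apart.

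The same label comparison was made in the other treatments, and the difference between treatments was tested in the same fit. In Tfh_1, 100 genes were called (0.852%), 60 of them higher (0.511%) and 40 lower (0.341%), and in Tfh_A none (0%, edgeR). In Tfh_A, 606 genes had an unadjusted p under 0.05, and DESeq2 called 78 and limma-voom 6. Of the 380 genes called in Tfh_5, 58 were also called in Tfh_1, which is 15.3% of the former and 58% of the latter. The Tfh_5 calls had the same direction in Tfh_1 for 329 genes and in Tfh_A for 178, and the share over all genes tested was not counted. In Tfh_1 the median difference was 0.73 for the genes called higher in Tfh_5 and -0.45 for those called lower. In Tfh_A these medians were 0.08 and 0.06. S100a4 differed by -2.96 ± 0.26 in Tfh_5 and -2.92 ± 0.26 in Tfh_1, while in Tfh_A it was -0.88 ± 0.24. Il2ra differed by -1.68 ± 0.18, -1.24 ± 0.18 and 0.00 ± 0.18 in the same order, and Sox4 by 4.77 ± 0.63, 3.74 ± 0.67 and -0.18 ± 0.58.

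The difference between the label effects in Tfh_5 and Tfh_1 passed the test for 7 genes (0.0597%), all more negative in Tfh_5. Lgals3 differed by -4.50 ± 0.34 in Tfh_5 and -1.70 ± 0.30 in Tfh_1 (difference of effects -2.80 ± 0.42, adjusted p = 0.000766, edgeR). Mt1 differed by -2.16 ± 0.20 against -0.38 ± 0.19 (adjusted p = 0.000766), Fam162a by -1.69 ± 0.18 against -0.07 ± 0.18 (adjusted p = 0.000766), and Pgk1 by -0.86 ± 0.17 against 0.29 ± 0.17 (adjusted p = 0.0385, edgeR). Ly6a and Tgm2, the transglutaminase 2 gene, were the fifth and sixth, with differences of effects of -1.24 ± 0.24 and -1.47 ± 0.29. The seventh, Adora2b, the gene of a second adenosine receptor, stood at 5.70, 10.8 and 12 CPM and 0, 0 and 0 CPM in Tfh_5 and at 3.80, 8.83 and 16.2 CPM and 6.21, 7.44 and 5.86 CPM in Tfh_1. It is the companion of Adora2a, which had counts in Tfh_5 only under the label CD4Cre+, so in Tfh_5 each label held RNA of 1 of these receptors and no count of the other.

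Against Tfh_A, the label effect in Tfh_5 differed for 140 genes (1.19%), 39 more positive (0.332%) and 101 more negative (0.861%). Of the 140 genes called higher in Tfh_5, 35 were among them, and of the 240 called lower, 91. Both tests use the same Tfh_5 libraries, so this overlap is partly built in. Klf2 stood at 18, 23 and 13.2 CPM and 8.22, 27 and 17.1 CPM in Tfh_A, so its groups overlapped there, in contrast to Tfh_5 (adjusted p of the difference 4.32e-06, edgeR). Lgals3 and S100a6 differed between the treatments by -5.35 ± 0.44 and -2.53 ± 0.28 in the log2 effect, and Id3 and Zfp36l1 by 3.11 ± 0.60 and 2.63 ± 0.49. A930005H10Rik, a gene without an assigned function, was among the 5 with the smallest adjusted p on the positive side (0.00326, edgeR), and AA467197, Mt1 and Tgm2 on the negative side. The Maf level under the label CD4Cre+ was at most 22.8 CPM in Tfh_A and at least 319 CPM in Tfh_5. Its part in these differences was not tested.

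**Figure D5:**
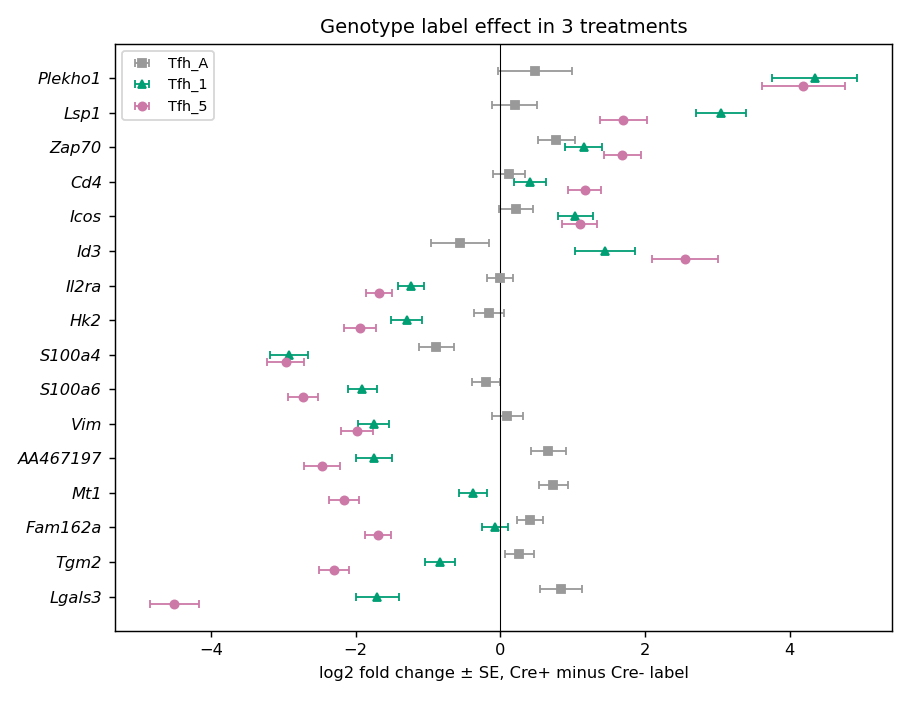
Log2 fold change of the label effect (CD4Cre+ minus CD4Cre-, with bars of 1 standard error) for 16 genes in Tfh_A, Tfh_1 and Tfh_5. Lgals3 and Mt1 lie lowest in Tfh_5, and S100a4 lies near the same value in Tfh_5 and Tfh_1.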

How the data were processed

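Bulk 3′ RNA-seq libraries of mouse CD4 T cells were analysed from the per-library gene tables. The deposited values are estimated counts, since reads shared between annotations give fractions, and the authors' tools were STAR (2.7.2b) for alignment to mm10 and featureCounts (1.6.4) for counting, per the submitters' processing notes. Each table lists 27179 Entrez identifiers, of which 25275 matched a gene name in RefSeq's table. Library totals were 6424874 to 9236153 counts. The counts were rounded to whole numbers. Fractional counts were not confined to the genes where the text mentions them. Ldha, Pgk1 and Cox6c had them in all 18 libraries and Fdps and Ly6a in 17, so how shared reads were assigned to these genes is uncertain too. edgeR 4.0.16 in R 4.3.3 (TMM scaling, filterByExpr, robust quasi-likelihood fit with 1 mean for each of the 6 groups over all 18 libraries) gave the tests, with Benjamini-Hochberg adjustment and a threshold of 0.05. The scripts were tested on simulated data. Alternatives were DESeq2 1.42.0, limma 3.58.1 (voom, with and without a block for the replicate number), upper-quartile scaling, no count filter, removal of the 2 identifiers with the most counts, the 6 Tfh_5 libraries alone, and each library left out.

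Members and lists were chosen with earlier results of these data known. The text names Maf, the 12 largest changes in each direction among called genes with at least 10 CPM and no overlap, up to 4 called members of each list by adjusted p, a panel of helper T cell genes, the neighbours of Maf, and the 5 smallest adjusted p-values per direction in the differences between treatments. Other genes named were chosen after their values were seen: these are the list members beyond 4, the members that did not pass and do not belong to the panel, and those introduced so in the text. Groups at 0 were set at 3 counts over the group for a fold, and 95% counting intervals are exact. Floors and intervals cover counting error only. Lists are described by counts and medians, with no test of the list. Some members of these lists and of the panel are not reported here.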

Additional observations from a re-analysis of the deposited data

Results flagged for a closer look

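In Tfh_5 and Tfh_1 the label effect (CD4Cre+ minus CD4Cre-) differed by a test of the difference itself for 7 genes, given here as the log2 effect in Tfh_5 minus that in Tfh_1, each past the threshold with edgeR's quasi-likelihood test. The differences were -2.80 for Lgals3, -1.78 for Mt1, -1.62 for Fam162a, -1.47 for Tgm2, -1.24 for Ly6a and -1.15 for Pgk1. For Adora2b the fitted difference was -8.59, a value that depends on the prior count because the libraries labelled CD4Cre+ held no count in Tfh_5.

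Between Tfh_5 and Tfh_A the same test passed for these genes among those with the smallest adjusted p. The effect was more negative in Tfh_5 by -5.35 for Lgals3, -3.13 for AA467197, -2.89 for Mt1, -2.56 for Tgm2 and -2.53 for S100a6. It was more positive by 3.11 for Id3, 2.63 for Zfp36l1 and 1.99 for Cdk2ap2, a binding partner of the kinase CDK2. The fitted differences of 9.56 for Klf2 and 9.80 for A930005H10Rik rest on groups with almost no counts, 1 count of Klf2 in Tfh_5 under the label CD4Cre- and 1 of A930005H10Rik in Tfh_A under the label CD4Cre+, and are no measured folds.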

How the results depend on the processing

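For the Tfh_5 label effect, 380 genes were called by the main test, 587 by DESeq2 and 80 by the 6 Tfh_5 libraries alone. That last fit has fewer samples to estimate the spread and also tested fewer genes, 9662. Upper-quartile scaling (394), limma-voom (402), no count filter (461) and removal of the 2 identifiers (378) stayed within 1.5 times. Leaving out 1 of the 6 libraries gave 258 to 387. DESeq2 called all 380 again, upper-quartile scaling 368, no filter 354 and limma-voom 287. For Tfh_5 minus Tfh_1, 7 genes became 52 with DESeq2 and 45 with no filter, and 5 to 21 without 1 library: 21 without replicate 1, 14 without replicate 3 (label CD4Cre+, Tfh_5), 13 without replicate 5 and 11 without replicate 2 (label CD4Cre-, Tfh_5). For Tfh_5 minus Tfh_A, 140 became 245 with DESeq2 and 235 with no filter, and 81 to 164 without 1 library, the lowest being 81 without replicate 1 of the label CD4Cre+ and 87 without replicate 5 of the label CD4Cre-, both in Tfh_A. What made the counts differ between these fits was not tested. Maf kept its call under every alternative run.

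With the replicate number as a block in limma-voom, 398 genes were called in Tfh_5, against 402 without the block; for the differences between treatments the blocked counts were 10 and 142. Whether same-numbered libraries share a mouse or culture is not stated, and these values cannot tell it. None of 18 pairs of same-numbered libraries had deviations correlated above 0.1, and the consensus correlation was -0.0106. Of the 18 libraries, 8 correlated best with their own number. With 3 libraries a group and this spread, a shared source could leave no such correlation. The compared labels share no replicate number, so the block bears on the treatments.

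The direction under every alternative run was checked for 90 called genes besides Maf, and none of them changed it. This check did not cover every called gene named in the text. Genes that did not pass and changed sign had these log2 differences: Gata3 0.40 with limma-voom, with or without the replicate block. Without 1 library, Gata3 ranged from -0.79 to 2.7, Il17a from -0.33 to 0.01, Il21 from -0.04 to 0.31 and S1pr1 from -2.03 to 0.11. Tcf7, at 11 counts over the libraries labelled CD4Cre- and 73 over those labelled CD4Cre+, shows the limit of depth: its difference was not detectable at this depth and spread.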

Other observations

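Several further called genes fell outside the lists and were chosen after their values were seen. Genes of surface proteins moved both ways. Selplg, which encodes the selectin ligand PSGL-1, was higher (106 ± 35.5 CPM under the label CD4Cre- and 213 ± 20.7 CPM under the label CD4Cre+, mean ± SD, n = 3 libraries each), as was Itm2a, a membrane protein gene of activated T cells (45.2 ± 26.9 and 218 ± 41.3 CPM). Thy1, which encodes the T cell antigen CD90, was lower (358 ± 65.5 and 184 ± 56.5 CPM), and Sema4f, a semaphorin gene, differed by -2.57 ± 0.37. Gimap4, a GTPase gene of lymphocytes, differed by 0.90 ± 0.20. Itm2a and Sema4f were called in every fit run, and Gimap4 in every fit without 1 library, whereas Thy1 lost the call without replicate 6 of the label CD4Cre+ (adjusted p = 0.0924, edgeR) and Selplg without any 1 of 3 libraries.

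Among other regulators of the T lineage, Bcl11b, a zinc finger factor of T cell commitment, differed by 1.04 ± 0.24 and Runx3, a factor of CD8 and Th1 cells, by -0.94 ± 0.24. Ulk1, which encodes a kinase that starts autophagy, differed by 2.89 ± 0.49 and was called in every fit run. The chaperone genes Hsp90aa1 and Hspd1 differed by -1.19 ± 0.20 and -1.15 ± 0.26. Bcl11b, Runx3 and Hspd1 each lost the call in fits without 1 library (adjusted p up to 0.0641, 0.158 and 0.0583, edgeR).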
